A study of Mus musculus with 8 samples.

Results

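The ATP-binding cassette (ABC) transporter genes were taken as every gene symbol in the deposited tables that is made of Abc, a letter from a to g, a number and at most 1 further letter. This gave 50 genes with 64 transcripts, of 24063 genes with 33068 transcripts listed. Subfamily A held 16 genes, B and C held 10 each, G held 6, D held 4, F held 3 and E held 1. The rule used names alone, so no measured value chose a gene within the family. The family itself was chosen with earlier results of these data known.

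The genes were measured by RNA-Seq in tubuloids, the three-dimensional tubule-like structures that primary mouse kidney tubule fragments form in Matrigel. All 8 cultures carried the genotype Pkd2fl/fl Pax8rtTA TetOCre mTmG, that is floxed *Pkd2* alleles, a doxycycline-dependent Cre driven through *Pax8* and a membrane colour reporter. The labels give the tissue as kidney of postnatal day 7 to 10, and by the study's methods no doxycycline was given for this experiment, so floxed *Pkd2* was left in place in both groups. The 4 GDNF cultures, numbered 6, 12, 17 and 22, received glial-derived neurotrophic factor for 24 h, and the 4 control cultures, numbered 3, 7, 14 and 21, received the same growth factor medium without it. GDNF is the ligand that draws the ureteric bud, the precursor of the collecting duct, into the developing kidney. All cultures were collected after 7 days. The comparison asks how the pulse changed transcript levels by the end of culture. Nothing in the labels says whether the cultures came from separate animals, so p-values here measure only the spread between these cultures.

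ABC proteins bind and hydrolyse ATP on a pair of nucleotide-binding domains. In subfamilies A, B, C, D and G most members couple this to moving lipids, bile salts, drugs, conjugated metabolites, peptides or metal cofactors across membranes. Subfamilies E and F have the ATPase domains without a membrane part and work on ribosomes and translation. In kidney tubules, ABC pumps such as P-glycoprotein (*Abcb1a* and *Abcb1b* in the mouse), *Abcg2*, *Abcc2* and *Abcc4* are known for secreting drugs, urate and organic anion conjugates into the urine.

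The promoters of *Abcg2* and *Abcc10* are shown because *Abcg2* was the member with the smallest p and because both starts of *Abcc10* are represented by transcripts in the tables. Each line holds the 250 bases before a RefSeq start of the GRCm38.p6 assembly, 5′ to 3′ on the strand of the gene, and ends at the base before that start. Capitals mark matches, on either strand, to 5 motifs that were searched. These were CACGTG (the E-box), TGACNNNGC (the core of the antioxidant response element), AGGTCA (the nuclear receptor half-site), GGGCGG (the GC box) and TATAAA (the TATA box). TGACNNNGC and the reverse complement of AGGTCA overlap in the upstream window of *Abcc10*.
*Abcg2*, chr6:58584283-58584532, plus strand: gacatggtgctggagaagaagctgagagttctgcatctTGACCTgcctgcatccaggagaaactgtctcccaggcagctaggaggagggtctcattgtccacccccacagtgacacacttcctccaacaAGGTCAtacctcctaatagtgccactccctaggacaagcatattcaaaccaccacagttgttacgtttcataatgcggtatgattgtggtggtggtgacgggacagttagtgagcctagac
*Abcg2*, chr6:58596422-58596671, plus strand: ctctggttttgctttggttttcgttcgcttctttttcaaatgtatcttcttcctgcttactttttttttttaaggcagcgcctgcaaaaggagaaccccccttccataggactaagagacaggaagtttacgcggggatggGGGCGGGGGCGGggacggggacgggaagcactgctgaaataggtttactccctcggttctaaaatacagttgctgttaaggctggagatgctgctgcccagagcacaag
*Abcg2*, chr6:58640296-58640545, plus strand: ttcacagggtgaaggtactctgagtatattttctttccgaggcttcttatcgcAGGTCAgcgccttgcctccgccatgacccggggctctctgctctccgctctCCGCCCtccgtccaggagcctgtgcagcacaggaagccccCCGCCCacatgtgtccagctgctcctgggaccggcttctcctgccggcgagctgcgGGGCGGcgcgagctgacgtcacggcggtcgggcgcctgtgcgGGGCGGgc
*Abcc10*, chr17:46328024-46328273, minus strand: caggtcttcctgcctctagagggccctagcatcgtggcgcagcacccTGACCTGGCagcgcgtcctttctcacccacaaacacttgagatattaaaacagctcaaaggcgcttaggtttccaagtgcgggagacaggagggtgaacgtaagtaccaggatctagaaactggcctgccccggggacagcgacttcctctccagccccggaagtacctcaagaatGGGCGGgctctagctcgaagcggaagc
*Abcc10*, chr17:46325767-46326016, minus strand: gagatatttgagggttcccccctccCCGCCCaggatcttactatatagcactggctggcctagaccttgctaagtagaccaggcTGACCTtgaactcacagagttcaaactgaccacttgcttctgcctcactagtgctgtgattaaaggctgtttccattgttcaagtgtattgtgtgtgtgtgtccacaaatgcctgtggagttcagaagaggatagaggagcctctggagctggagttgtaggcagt

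The *Abcg2* starts differed in letters. The most upstream window held AGGTCA at bases -212 and -121 and no GC box, the middle window held GGGCGG at -109 and -103, and the most downstream window held AGGTCA at -197 and GGGCGG at -146, -106, -50 and -8, each position being that of the first base of the match before the start. GENCODE places the start of NM_011920, the *Abcg2* transcript in the tables, at base 58596671 of chromosome 6, the end of the middle window, and the tables give no separate level for the other starts. The upstream *Abcc10* window, that of NM_170680, held TGACNNNGC and AGGTCA at -203 and GGGCGG at -27. The window of NM_145140 held GGGCGG at -225 and AGGTCA at -166. The window before the start of *Abce1*, on chromosome 8, held none of the 5 motifs.

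RefSeq windows were found for 38 members, with 45 starts. GGGCGG was found in 44.4% of the 45 member windows and in 32.7% of all 32851 promoter windows of the same length, and the median GC content was 56.4% and 52.4%. CACGTG was found in 11.1% of member windows and 6.02% of all, TGACNNNGC in 8.89% and 10.2%, AGGTCA in 15.6% and 14.02%, and TATAAA in 11.1% and 12.4%. *Abca1*, the cholesterol exporter, had an E-box, GC boxes and TATAAA at -29. *Abcc4* held TGACNNNGC before both of its starts. A match is a run of letters and says nothing about binding.

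In the tubuloids 23 of the 50 ABC genes averaged 1 TPM or more over the 8 cultures, where TPM is the authors' transcript level scaled per transcript length and to the same total. Of these, 10 reached 10 TPM and carried 79.8% of the summed TPM of all members, and 27 genes lay under 1 TPM. The level of a gene is that of its transcript with the highest mean count. The numbers of genes, the share and the order given here hold for that choice. By it *Abcc5* was at 8.89 TPM, while its other transcript, of 1176 bp, averaged 16.9 TPM. *Abce1* (NM_015751, chromosome 8), the ribosome recycling factor, was first with 49.0 TPM. *Abcf2* followed with 42.5 TPM, *Abcg2*, the urate and drug exporter of the apical membrane, with 40.6 TPM, and *Abcf1*, which acts in translation initiation, with 28.5 TPM. The peroxisomal half-transporter *Abcd3* was at 27.1 TPM, *Abcf3* at 24.2 TPM, the cyclic nucleotide and organic anion pump *Abcc4* at 24.0 TPM and the glutathione-conjugate pump *Abcc1* at 16.1 TPM. *Abcb8*, of the mitochondrial inner membrane, was at 12.9 TPM and *Abcd4*, which takes part in lysosomal cobalamin export, at 11.0 TPM. The first 3 genes could not be ordered against each other in the control cultures, where *Abce1* was at 48.7 ± 12.1, *Abcg2* at 44.8 ± 7.55 and *Abcf2* at 38.1 ± 11.98 TPM (SD, n = 4). After GDNF, *Abce1* at 49.3 ± 5.66 and *Abcf2* at 47.0 ± 4.81 TPM overlapped, and *Abcg2* was at 36.5 ± 3.00 TPM. The next genes were not separated from each other in the controls, where *Abcf1* was at 23.4 ± 5.98, *Abcd3* at 21.4 ± 4.81, *Abcf3* at 19.6 ± 3.30 and *Abcc4* at 18.7 ± 9.01 TPM.

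**Figure D1:**
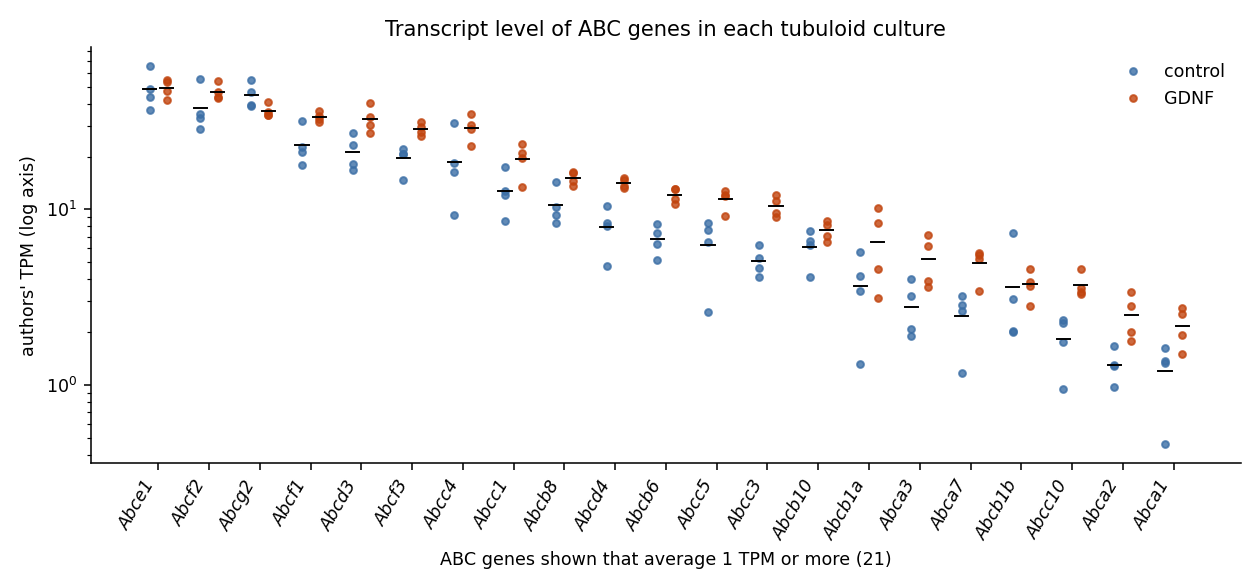
Authors' TPM (log axis) of 21 of the ABC genes that averaged 1 TPM or more, ordered by mean, with 1 point per culture (blue, control; orange, GDNF) and a bar at each group mean. *Abce1*, *Abcf2* and *Abcg2* lead, and *Abcg2* is the one gene shown whose mean is visibly lower after GDNF.

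Several members with a known role in bile, sterol or kidney transport were at or near 0. The deposited counts of *Abcc2*, the canalicular conjugate pump of liver that is also known from proximal tubule, were 9, 3, 14 and 26 in GDNF cultures 6, 12, 17 and 22 and 0, 5, 7 and 2 in control cultures 3, 7, 14 and 21. *Abcb11*, the bile salt export pump, had 4 counts in all 8 cultures together, while *Abcb4*, the phospholipid exporter of bile, was at 0.845 TPM after GDNF and 0.844 TPM in the controls and was tested (log2 fold change -0.45 ± 0.48, edgeR, adjusted p = 0.602). *Abcg5*, which pairs with *Abcg8* to export sterols, had 0, 22, 0 and 17 counts after GDNF and 2, 1, 0 and 0 in the controls. *Abcg8*, summed over 3 transcripts that share their reads, had 0, 12, 3 and 21 counts after GDNF and 0, 9, 0 and 0 in the controls. *Abcc6*, the gene of pseudoxanthoma elasticum, had 7, 2, 0 and 0 counts after GDNF and none in the controls. These counts came from tables of 72991721 to 97490625 counts, in which shared reads enter once per transcript. With 1 transcript per gene the totals were 46478955 to 62847252 counts. The genes named here so sit at the limit of what this depth shows, except *Abcb4*, and 3 counts were taken as the level that a count of 0 allows. With *Abca12*, *Abca14*, *Abca15*, *Abca16*, *Abca17*, *Abca8a*, *Abcb5*, *Abcc12* and *Abcg3*, the genes *Abcc2*, *Abcb11*, *Abcg5*, *Abcg8* and *Abcc6* make up the 14 members that did not pass the filter on low counts, with totals from 4 to 83 counts, and were not tested. *Abca12*, a lipid transporter of skin, was the one of these whose groups did not overlap, with 4, 6, 19 and 5 counts after GDNF and 0, 2, 0 and 0 in the controls.

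No ABC gene passed an adjusted p of 0.05 between GDNF and control cultures in the edgeR quasi-likelihood fit, in which 0% of the 16557 genes tested passed. At an unadjusted p of 0.05, 8 of the 36 members tested passed, or 22.2%, against 22.1% of all genes. In 6 of them (16.7%) the level was higher after GDNF, against 9.25% of all genes, and in 2 (5.56%) it was lower, against 12.9% of all genes. The smallest adjusted p among the members was 0.167. The groups did not overlap for 6 of the 36 members (16.7%, against 13.2% of all genes), of which 5 were higher (6.99% of all genes) and 1 was lower after GDNF (6.26% of all genes). Groups without overlap always give p = 0.0286 in an exact two-sided permutation test of mean CPM, the smallest that 4 against 4 cultures can give. For these 6 that p was thus fixed by the way they were picked and adds nothing. With DESeq2, the tool the processing notes name, 2 members passed an adjusted p of 0.05, *Abcg2* and *Abcc3*, or 5.56% against 8.13% of all genes. The median log2 fold change (GDNF minus control) was 0.27 over the 36 members and 0.03 over all genes tested, and 26 members had a positive value.

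*Abcg2* was lower after GDNF. In counts scaled to library size (CPM) with TMM normalization, its level was 46.0, 43.3, 44.6 and 48.1 in GDNF cultures 6, 12, 17 and 22, and 82.7, 60.8, 84.9 and 66.9 in control cultures 3, 7, 14 and 21. Every GDNF culture lay below every control culture, and the GDNF cultures varied less among themselves than the controls. The log2 fold change was -0.70 ± 0.15 (SE; edgeR, adjusted p = 0.167), or 0.616-fold, and -0.71 ± 0.16 with an adjusted p of 0.0103 in DESeq2. The log2 value stayed between -0.78 and -0.47 under the alternatives tried, and on the same side of the unadjusted threshold in all of them. It was -0.68 among cultures in which *Xist* was higher (GDNF 6 and 12, control 3 and 7). Among those in which Y-linked RNA was higher (GDNF 17 and 22, control 14 and 21) it was -0.71. These are parts of the same cultures and not independent results. On the authors' TPM scale the means of *Abcg2* were 36.5 after GDNF and 44.8 in the controls, and the groups overlapped. GDNF culture 22, at 40.9 TPM, was above control cultures 3 and 7, at 38.7 and 39.2 TPM. The lack of overlap thus depended on the scale. In bulk RNA, fewer cells of a type and less RNA per cell cannot be told apart.

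*Abcc3*, a basolateral pump of glucuronide conjugates, was higher after GDNF. It was at 25.6, 30.1, 22.7 and 26.4 CPM in the GDNF cultures, in the order above, and at 17.7, 19.6, 14.4 and 15.3 CPM in the controls, without overlap. The log2 fold change was 0.65 ± 0.16 (SE; edgeR, adjusted p = 0.167), or 1.56-fold, and 0.63 ± 0.18 with an adjusted p of 0.0223 in DESeq2. It was 0.57 among cultures with *Xist* and 0.73 among those with Y-linked RNA, with the cultures split as for *Abcg2*. The levels of *Abcc3* and *Abcg2* were also set against each other. The TPM of *Abcc3* was 0.277, 0.347, 0.253 and 0.273 of that of *Abcg2* in the GDNF cultures and 0.107, 0.161, 0.0843 and 0.114 in the controls, a pair chosen after its values were seen and given without a test.

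Of the other drug and conjugate pumps, *Abcc10* was higher after GDNF without overlap, and *Abcc4* and *Abcc1* overlapped. *Abcc4* was spread widely, with 274, 242, 194 and 281 CPM after GDNF and 240, 193, 97.6 and 303 CPM in the controls, so that the lowest and the highest culture were both controls (log2 fold change 0.25 ± 0.30, edgeR, adjusted p = 0.642). Its log2 value was 0.01 without control culture 14 and 0.45 without control culture 21. The CPM of *Abcc4* sum 3 transcripts that share reads, so a read can enter more than once. They serve to compare cultures and not genes. *Abcc1* was at 42.8, 58.3, 62.0 and 66.4 CPM after GDNF and 43.9, 44.7, 47.2 and 60.1 CPM in the controls (0.23 ± 0.17, adjusted p = 0.449), with log2 values of 0.35 without GDNF culture 6 and 0.15 without GDNF culture 22. *Abcc10*, a pump of drugs and conjugates, was at 15.9, 20.3, 14.4 and 13.7 CPM after GDNF and 7.02, 12.7, 12.6 and 8.999 CPM in the controls. Its groups did not overlap, and the log2 fold change was 0.64 ± 0.23 (edgeR, adjusted p = 0.177). It was no longer past the unadjusted threshold without GDNF culture 12 (log2 value 0.51) or control culture 21 (0.53).

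**Figure D2:**
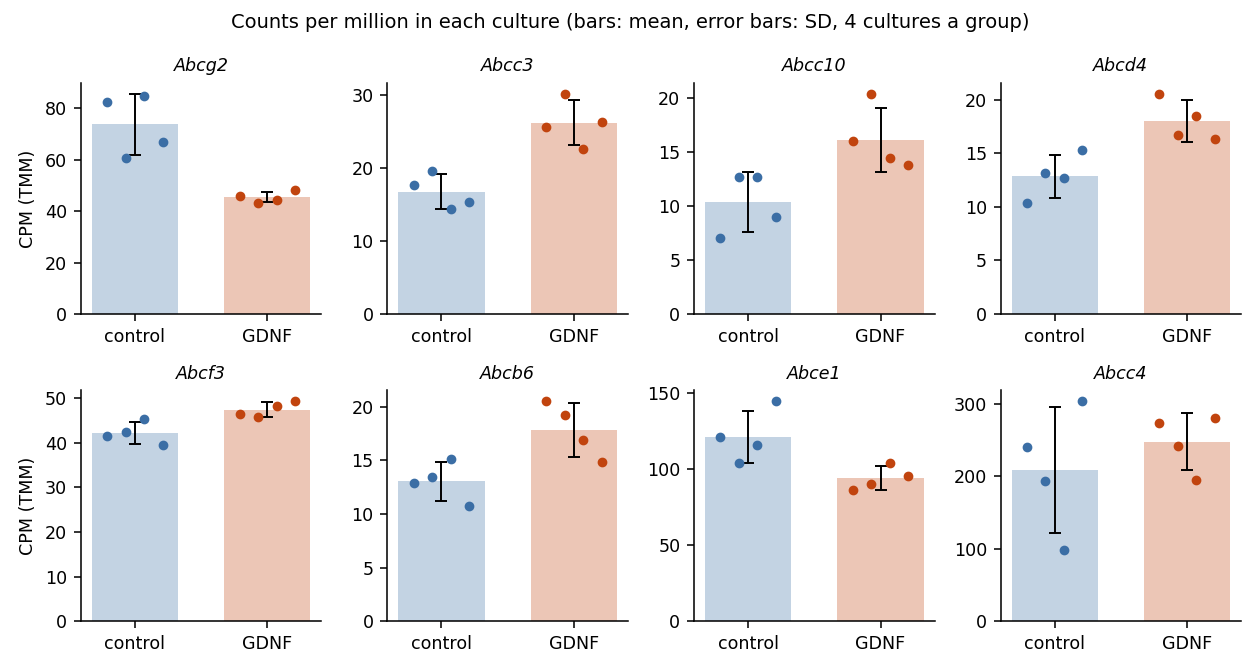
CPM with TMM normalization of 8 ABC genes, with 1 point per culture, bars at the group mean and error bars of 1 SD (n = 4 cultures a group). The groups do not overlap for *Abcg2*, *Abcc3*, *Abcc10*, *Abcd4* and *Abcf3*, and they overlap for *Abcb6*, *Abce1* and *Abcc4*.

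The P-glycoprotein genes *Abcb1a* and *Abcb1b*, neighbours on chromosome 5 with *Abcb4*, did not run in parallel. *Abcb1a* was at 8.38, 11.4, 25.3 and 19.7 CPM after GDNF and 5.61, 10.7, 17.7 and 12.1 CPM in the controls (log2 fold change 0.49 ± 0.40, edgeR, adjusted p = 0.485). This value was 0.19 without GDNF culture 17, 0.26 without control culture 3 and 0.77 without control culture 14. *Abcb1b* was at 6.57, 8.01, 8.43 and 9.38 CPM after GDNF and 11.5, 5.39, 5.50 and 18.5 CPM in the controls (-0.33 ± 0.38, adjusted p = 0.624), with control cultures 3 and 21 above all others, and its log2 value was -0.54 without control culture 7 or 14 and 0.09 without control culture 21. The *Abcb1a* level was lower in each of the 4 cultures with higher *Xist* than in each of the 4 with higher Y-linked RNA. Both sets mixed the treatments. No other of the 36 members tested showed such a separation, and the share of all genes was not computed. The first set held the cultures numbered 3, 6, 7 and 12 and the second those numbered 14, 17, 21 and 22. The split therefore cannot be told apart from the order of the culture numbers. GDNF culture 6 and control culture 3 also had some Y-linked RNA. The ratio of *Abcb1a* to *Abcb1b* TPM was 1.70 ± 0.687 after GDNF and 1.39 ± 1.12 in the controls (SD, n = 4; exact permutation test, two-sided, p = 0.657). In control cultures 3 and 21 the ratio was 0.427 and 0.570, so that *Abcb1b* exceeded *Abcb1a*, and in control cultures 7 and 14 it was 1.73 and 2.82. The genes are close in sequence, and how reads that fit both were counted is not given in the sources used here, so their separate values are uncertain.

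**Figure D3:**
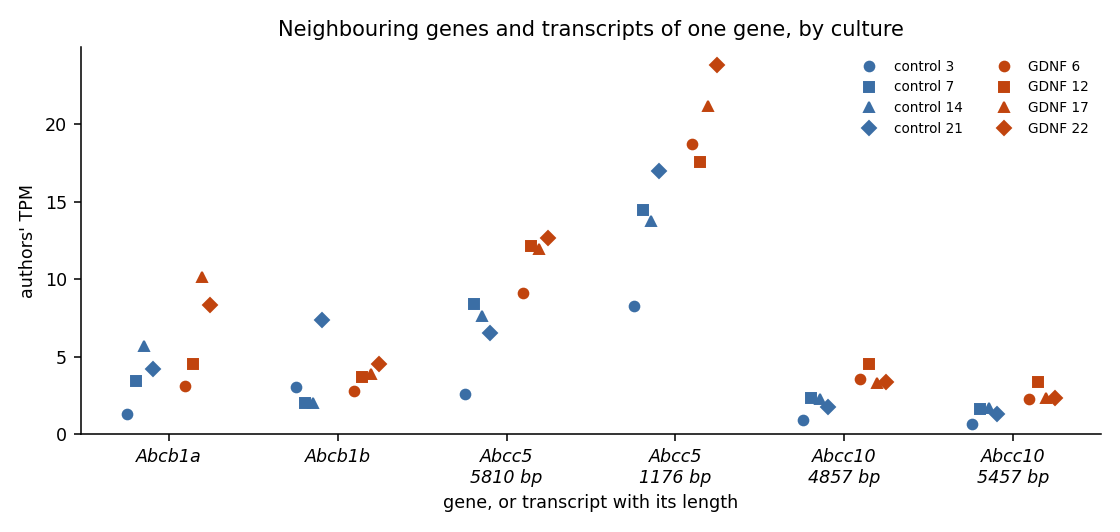
Authors' TPM in each culture (symbols mark the culture, blue for control and orange for GDNF) of the neighbours *Abcb1a* and *Abcb1b* and of a pair of transcripts each of *Abcc5* and *Abcc10*. *Abcb1b* stands highest in control culture 21, and both transcripts of *Abcc5* and of *Abcc10* have higher means after GDNF.

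*Abcc5*, a cyclic nucleotide pump, and *Abcc10* are C genes whose listed transcripts had different counts. The *Abcc5* transcript of 5810 bp was at 9.14, 12.1, 11.9 and 12.7 TPM after GDNF and 2.59, 8.38, 7.66 and 6.55 TPM in the controls. The transcript of 1176 bp was at 18.7, 17.6, 21.2 and 23.8 TPM after GDNF and 8.28, 14.5, 13.8 and 17.01 TPM in the controls. On this per-length scale the short transcript was above the long one in every culture. Every GDNF culture was above every control for each transcript, as was the case in TPM for 20.6% of all genes tested. In CPM the gene overlapped (log2 fold change 0.44 ± 0.20, edgeR, adjusted p = 0.227). For *Abcc10*, NM_170680, whose promoter is the upstream one shown, was at 3.71 ± 0.585 TPM after GDNF and 1.83 ± 0.640 TPM in the controls. NM_145140, from the downstream promoter, was at 2.58 ± 0.534 and 1.32 ± 0.484 TPM (SD, n = 4). Reads common to transcripts of a gene are counted in each, so these levels are not independent. The 3 transcripts of *Abcc4* and the 4 of *Abcc9* had nearly equal counts for this reason.

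Among the cholesterol and lipid transporters of subfamily A and G, 9 of the 10 A members tested had a positive log2 fold change, with a median of 0.55 and a range from -0.18 to 1.497, and 2 passed an unadjusted p of 0.05. Of all genes tested, 52.5% had a positive value. The A genes are long, and with a trend over transcript length removed their median was 0.17 and 8 of 10 were positive. *Abca1* was at 8.25, 9.93, 13.02 and 13.3 CPM after GDNF and 4.03, 8.48, 10.4 and 8.17 CPM in the controls, with overlap (0.52 ± 0.29, edgeR, adjusted p = 0.317), and the log2 value was 0.30 without control culture 3. *Abcg1*, which passes cholesterol to lipoproteins, was at 3.99, 2.81, 2.93 and 3.21 CPM after GDNF and 2.19, 3.62, 1.02 and 2.05 CPM in the controls (0.54 ± 0.37, adjusted p = 0.397), with log2 values of 0.88 without control culture 7 and 0.30 without control culture 14. *Abca7*, a phospholipid transporter, was at 12.1, 18.6, 18.3 and 16.2 CPM after GDNF and 6.65, 10.8, 13.2 and 10.9 CPM in the controls (0.65 ± 0.24, adjusted p = 0.178). GDNF culture 6 was below control culture 14, so its groups overlapped. It was no longer past the unadjusted threshold without GDNF culture 12 (log2 value 0.58), GDNF culture 17 (0.59) or control culture 21 (0.63). *Abca8b* was low, at 2.45, 1.13, 1.77 and 0.817 CPM after GDNF and 0.235, 0.909, 0.363 and 0.667 CPM in the controls (log2 value 1.497 ± 0.52, adjusted p = 0.169), and without GDNF culture 6 its log2 value was 1.18 and no longer past the unadjusted threshold. *Abca8a* and *Abca8b* are close in sequence, and as the counting of reads that fit both is not given in the sources used here, the value of *Abca8b* is uncertain. It lies on chromosome 11 in a run with *Abca8a*, *Abca9*, *Abca6* and *Abca5*, from base 109932206 to base 110337723 of GRCm38. Its neighbours *Abca9*, *Abca6* and *Abca5* had log2 values of -0.18 ± 0.997, 1.14 ± 1.33 and 0.47 ± 0.31, so the run did not share a direction beyond its errors.

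The lipid partners of these transporters are often induced together by the liver X receptors (*Nr1h2* and *Nr1h3*). Of 9 tested members of a list of such targets and partners, 2 were higher at an unadjusted p of 0.05, *Mylip* at 0.53 ± 0.17 (edgeR, adjusted p = 0.167) and *Npc1* at 0.39 ± 0.17 (adjusted p = 0.223), and 1 was lower, *Npc2* at -0.55 ± 0.21 (adjusted p = 0.188). The median was 0.14. Of all genes tested, 9.25% were higher and 12.9% lower at that threshold. Of 10 tested receptors and factors known to regulate ABC genes, *Rxra* (0.30 ± 0.12, adjusted p = 0.195) and *Pparg* (0.63 ± 0.24, adjusted p = 0.183) were higher at that threshold and none was lower, and the pregnane X receptor *Nr1i2* was too low to be tested. None passed the adjusted p. The counts of these 10 genes too stand beside the 9.25% of all genes that were higher and the 12.9% that were lower. The ABC genes that carry other names were outside the rule, and none of the 3 passed the unadjusted threshold. The chloride channel *Cftr* was at 0.69 ± 0.36 (adjusted p = 0.283), and the peptide transporters *Tap1* and *Tap2* were at 0.06 ± 0.33 and 0.00 ± 0.25.

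**Figure D4:**
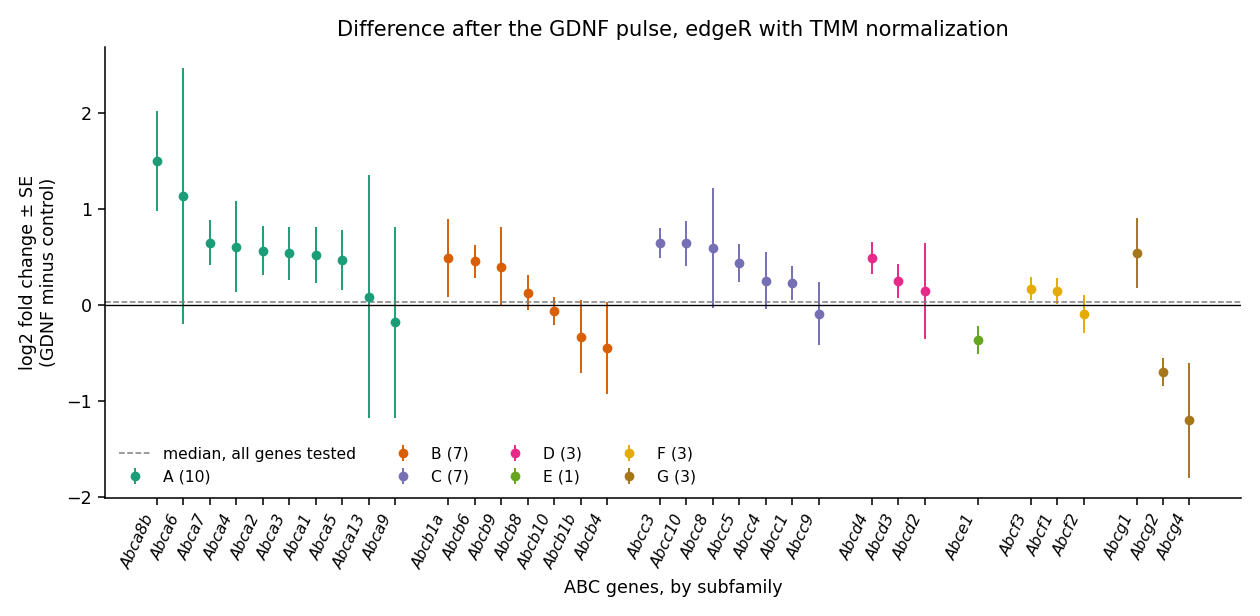
Log2 fold change (GDNF minus control; error bars, SE of the edgeR fit, 4 cultures a group) of 34 of the ABC genes tested, by subfamily, with the median of all genes tested as a dashed line. The 3 D members shown and 9 of 10 A members lie above 0, and *Abcg2* and *Abce1* below it.

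In subfamily D, which carries fatty acids into peroxisomes and cobalamin out of lysosomes, all 4 members had a positive log2 value, with a median of 0.27, and 3 of them had one with the length trend removed. *Abcd4* was at 20.5, 16.7, 18.5 and 16.3 CPM after GDNF and 10.4, 13.1, 12.7 and 15.3 CPM in the controls, without overlap (0.49 ± 0.17, edgeR, adjusted p = 0.170). It stayed past the unadjusted threshold with any 1 culture left out, at log2 values from 0.39 to 0.53. *Abcd3* was at 73.8, 51.2, 46.1 and 54.1 CPM after GDNF and 48.8, 49.2, 38.6 and 53.6 CPM in the controls (0.24 ± 0.18, adjusted p = 0.430). Its highest value was that of GDNF culture 6, without which the log2 value was 0.09, and it was 0.16 without control culture 14. Of 5 genes of peroxisomal membrane protein import and fatty acid oxidation, none passed the unadjusted threshold and their median was -0.06.

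Subfamily B also holds transporters of the mitochondria and the endolysosomal membranes, and its 8 tested members were split into 4 positive and 4 negative values. *Abcb6*, linked to porphyrin transport, was at 20.5, 19.2, 16.9 and 14.8 CPM after GDNF and 12.9, 13.4, 15.2 and 10.7 CPM in the controls (0.45 ± 0.17, edgeR, adjusted p = 0.188). Only GDNF culture 22 and control culture 14 overlapped, and it was no longer past the unadjusted threshold without GDNF culture 6 (log2 value 0.38), GDNF culture 12 (0.41) or control culture 21 (0.32). *Abcb8* was at 25.4, 24.0, 20.002 and 20.2 CPM after GDNF and 23.3, 18.9, 15.3 and 24.5 CPM in the controls (0.13 ± 0.18, adjusted p = 0.707), with log2 values of 0.06 without GDNF culture 6, 0.19 without control culture 3 and 0.01 without control culture 14. *Abcb10*, of heme synthesis, had a log2 value of -0.07 ± 0.15 (adjusted p = 0.810). Of 4 heme and iron-sulfur genes, *Glrx5* was lower at the unadjusted threshold (-0.73 ± 0.20, adjusted p = 0.167), as 12.9% of all genes tested were.

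*Abce1* and the F subfamily act on ribosomes. *Abce1* was at 86.1, 90.2, 104 and 95.5 CPM after GDNF and 121, 104, 115 and 144 CPM in the controls, and only GDNF culture 17 and control culture 7 crossed, by less than 1 CPM. The log2 fold change was -0.37 ± 0.14 (edgeR, adjusted p = 0.188). Scaling by library size alone gave -0.15, no longer past the unadjusted threshold, and on the TPM scale the group means were 49.3 and 48.7, so the direction of *Abce1* depended on the scale. Nor was it past that threshold without GDNF culture 6 (-0.33), 12 (-0.35) or 22 (-0.38). *Abcf1* was at 52.8, 54.0, 51.5 and 54.4 CPM after GDNF and 48.2, 44.7, 41.4 and 58.0 CPM in the controls (0.15 ± 0.14, adjusted p = 0.547), with a log2 value of 0.08 without control culture 14. *Abcf2* was at 121, 111, 139 and 114 CPM after GDNF and 154, 92.1, 106 and 166 CPM in the controls (-0.09 ± 0.20, adjusted p = 0.806), with control cultures 3 and 21 the highest, as they were for *Abcb1b*. The CPM of *Abcf2* sum 2 transcripts with nearly equal counts from shared reads, so they do not compare with those of other genes. *Abcf3*, of which less is known, was at 46.4, 45.7, 48.3 and 49.2 CPM after GDNF and 41.5, 42.4, 45.3 and 39.4 CPM in the controls. Its groups did not overlap, although the fit gave 0.17 ± 0.12 (adjusted p = 0.403), and 0.09 without control culture 21. Of 5 partner genes in ribosome recycling, termination and initiation, 3 were lower at the unadjusted threshold, which 12.9% of all genes tested passed as lower, among them the initiation factor *Eif2s1* at -0.60 ± 0.16 (adjusted p = 0.167), and their median was -0.30.

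The sulfonylurea receptors *Abcc8* and *Abcc9* form potassium channels with *Kcnj11* and *Kcnj8*. They were under 1 TPM, at 0.59 ± 0.62 and -0.09 ± 0.33 on the log2 scale (edgeR, adjusted p = 0.594 and adjusted p = 0.893). *Kcnj8* was lower at the unadjusted threshold (-1.21 ± 0.41, adjusted p = 0.167). Among the 4 peptide-loading partners of *Tap1* and *Tap2*, 3 were lower at that threshold, *B2m*, *Calr* and *Pdia3*, at -0.47, -0.53 and -0.65, beside the 12.9% of all genes tested that were lower. Their transcripts are of 858, 1943 and 2642 bp. In the length classes described next, the median of all genes was -0.31 in that of *B2m* and -0.10 in that of *Calr* and *Pdia3*. Any part of length in the values of these 3 genes was not tested.

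The members' values ran with transcript length, as those of all genes did. With the genes tested divided by transcript length into 4 classes of nearly equal size, the median log2 fold change of all genes went from -0.31 in the shortest class (up to 1632 bp) over -0.10 and 0.06 to 0.30 in the longest (from 4106 bp). Of the 36 members tested, 23 were in the longest class with a median of 0.49, 10 in the next with 0.16, 3 in the one below with -0.09 and none in the shortest. When a trend over length was removed in each culture, the median of the members was 0.10 and that of all genes -0.04. Then 4 members were higher and 4 lower at an unadjusted p of 0.05, or 22.2% of the 36, against 17.5% of all genes in that fit. *Abcg2* was at -0.69 ± 0.14, *Abce1* at -0.50 ± 0.13, *Abcd4* at 0.49 ± 0.16 and *Abcc3* at 0.40 ± 0.17, all past that threshold, while *Abcc10* and *Abca7*, at 0.42 and 0.32, were not. The smallest adjusted p of a member in this fit was 0.219 (edgeR). The part of RNA quality or library preparation in the relation to length was not tested.

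**Figure D5:**
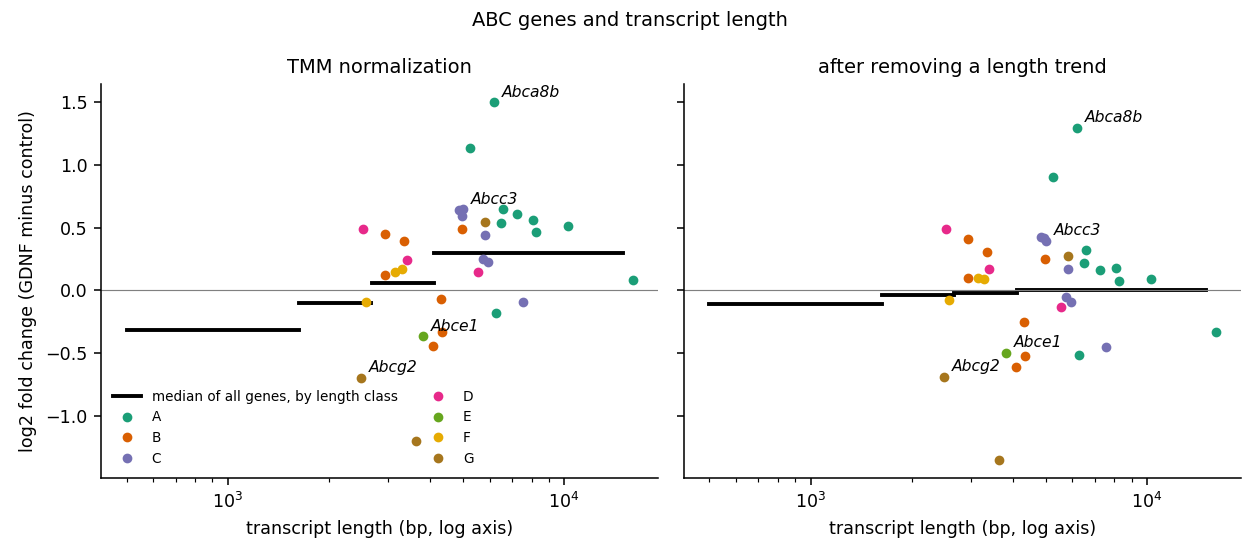
Log2 fold change (GDNF minus control) of 34 of the ABC genes tested against transcript length (log axis), before and after a length trend was removed, with black lines at the median of all genes in each length class (the outer lines are drawn from 500 and up to 15000 bp). No member is in the shortest class, and *Abcg2* and *Abcd4* kept their values when the trend was removed.

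The scale of the values also differed between the groups. TMM factors were 1.07 to 1.11 in the GDNF cultures, 0.963 to 0.982 in control cultures 7, 14 and 21, and 0.790 in control culture 3, which stood apart. Without it, 6 of 37 members were higher and 2 lower at an unadjusted p of 0.05, and 14.04% of all genes passed in either direction. On the TPM scale the median log2 ratio of the group means was 0.42 over all genes tested and 0.65 over the members, and 34 of the 36 members had the higher mean after GDNF. The sum of TPM over all 50 members was 393 ± 20.6 after GDNF and 298 ± 62.3 in the controls (SD, n = 4), and it is to be read against that shift. With library size alone the medians were 0.49 and 0.25.

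The makeup of the cultures was read from marker lists. Epithelial genes were present (*Epcam* at 137 TPM after GDNF and 147 TPM in the controls). Summed TPM of the 6 epithelial markers ranged from 1028 to 1360 after GDNF and from 470 to 3639 in the controls, with means of 1152 and 1909 TPM. Their median log2 fold change was -1.07. *Krt8* and *Cldn4* were lower after GDNF at an unadjusted p of 0.05, as 12.9% of all genes tested were. The 10 proximal tubule markers summed to 18.3 to 28.0 TPM after GDNF and 11.4 to 16.5 TPM in the controls. Of these, *Slc5a2* (11.2 and 6.52 TPM) and *Ggt1* (10.1 and 6.60 TPM) reached 1 TPM. *Slc22a8*, at 0.743 and 0.167 TPM, was higher after GDNF at an unadjusted p of 0.05, and *Lrp2*, *Slc34a1* and *Slc22a6* were at or under 0.08 TPM in both groups. Of the 8 principal cell markers of the collecting duct 5 reached 1 TPM, with sums from 13.3 to 92.1 TPM after GDNF and from 7.82 to 33.4 TPM in the controls. Fibroblast markers summed to 107 to 819 TPM and 99.3 to 1033 TPM, and pericyte and smooth muscle markers to 218 to 713 TPM and 178 to 833 TPM. Endothelial markers summed to 64.5 to 157 TPM and 45.3 to 139 TPM, podocyte markers to 21.2 to 96.2 TPM and 12.2 to 88.5 TPM, and macrophage markers to 22.7 to 59.0 TPM and 14.7 to 40.4 TPM. Loop of Henle markers summed to at most 3.03 TPM, distal convoluted tubule markers to at most 1.21 TPM, with 1 of 2 at 0 in all cultures, intercalated cell markers to at most 10.3 TPM and red cell precursor markers to at most 6.40 TPM. The part of these cells in the differences above was not tested.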

How the data were processed

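RNA-Seq of 4 GDNF and 4 control tubuloid cultures was analysed. SMART-Seq v4 libraries with poly-A selection were sequenced as paired-end reads, and the authors mapped them to mm10, the equivalent of GRCm38. The submitters' notes name STAR, featureCounts and DESeq2, whose versions, strand setting and rule for reads that fit several genes are not given in the sources used here. The deposited tables hold raw, unnormalized counts for each RefSeq transcript, and reads common to transcripts of a gene appear in each. The deposited FPKM were used only to derive transcript lengths, and the deposited TPM for levels between genes. Totals were 72991721 to 97490625 counts per culture, and none of the 12 pairs of cultures within a group was alike within sampling noise.

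Counts were summed per symbol, filtered with filterByExpr (16557 genes tested, 36 of them members) and compared with edgeR 4.0.16 in R 4.3.3 (TMM, glmQLFit, glmQLFTest, two-sided, Benjamini-Hochberg adjustment over all genes tested, threshold 0.05). The common biological coefficient of variation was 36.8%. The SE of a log2 fold change is its size divided by the square root of F. CPM use the library sizes after the filter and the TMM factors. Reads common to transcripts of a gene enter its sum once per transcript, so CPM compare cultures and not genes. Exact permutation tests covered all 70 assignments of cultures, with a smallest two-sided p of 0.0286. Alternatives were other normalizations and filters, DESeq2 1.42.0, limma-voom (limma 3.58.1), a robust fit, 1 transcript per gene, a covariate for *Xist* or Y-linked RNA, a spline over transcript length (5 degrees of freedom), and leaving out each culture. DESeq2 at an adjusted p of 0.1 and fits within the cultures with *Xist* or Y-linked RNA were added after seeing the data. The tests were checked on simulated counts.

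The members and the gene lists were chosen with earlier results of these data known. Values in every culture are given for the 10 members with the highest mean TPM, members with an unadjusted p of 0.05 or less, members whose groups did not overlap, and members with a known role in kidney, drug or cholesterol transport; *Abcc5*, *Abcb4* and *Abcb10* were named after their values were seen. For 2 members that enter the counts and medians, single values are not reported here. Promoter windows and gene positions are from RefSeq on GRCm38, transcript starts from GENCODE release M21. Python 3.11.15, pandas 2.3.3, SciPy 1.17.1 and matplotlib 3.10.9 were used.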

Additional observations from a re-analysis of the deposited data

Results flagged for a closer look

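*Abcg4*, a sterol transporter known from brain and the lowest member of subfamily G that was tested, had 1 culture far from the others of its group. Control culture 14 was at 0.758 CPM, while the other control cultures were at 0.261 to 0.277 CPM and the GDNF cultures at 0.119, 0.189, 0.277 and 0.0867 CPM. The gene had a log2 fold change of -1.20 ± 0.60 (SE; edgeR, adjusted p = 0.260). In 72 groups of 4 cultures examined over the tested members, 1 such value was found and 3.6 are expected by chance.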

How the results depend on the processing

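No paired analysis was made. The groups share no culture numbers, and nothing in the labels pairs a GDNF culture with a control culture. Whether some cultures were paired is therefore not known. The count of members past an adjusted p of 0.05 was 0 in edgeR and limma-voom under every setting tried. It was 2 in DESeq2, where 8.13% of all genes passed. It was 5 in DESeq2 at an adjusted p of 0.1, for which the share of all genes was not computed. The count past an unadjusted p of 0.05 (8, with 6 higher and 2 lower) was 14, with 13 higher and 1 lower, when scaled by library size alone (25.1% of all genes, whose median was then 0.25), and 4 members were lower with the length trend removed. With 1 culture left out it ranged from 4 (without GDNF culture 12, 13.9% of all genes) to 11 (without control culture 7, 24.5% of all genes). It ranged from 3 to 9 for higher members, with 3 without control culture 21, and from 1 to 3 for lower ones. The median log2 fold change of the members (0.27) was 0.49 with library size alone, 0.44 without a filter on low counts, which adds the 14 members with few counts, and 0.10 with the length trend removed, and it ranged from 0.26 to 0.38 with 1 culture left out. The count of members without overlap (6) was 10 with library size alone and ranged from 6 to 11 with 1 culture left out, the highest without control culture 7. When a culture is left out, any gene can gain this separation but not lose it. The share of all genes was not computed for these settings. With the length trend removed the sign turned for 4 of the 36 members tested, among them *Abcc1* (-0.0893) and *Abcc4* (-0.0492). It also turned for *Abcf2* with library size alone (0.13), and for *Abcf2* and *Abcb1b* without control culture 21, over ranges of -0.227 to 0.00688 and -0.545 to 0.0885. Of 399 alternatives over the 20 tested members whose values are given by the rule, 367 kept direction and side of the threshold. The causes were not tested. Counting error limits the 14 members with at most 83 counts.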
